A study of Mus musculus with 2 samples.

Results

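Clmp, Eef1a2, Gpr179, C1ql3, Moxd1, Rcn3 and Ptpro are 7 of the 31054 features counted in single-cell RNA-seq libraries of pancreatic islets from Tg7 and Wild-type mice. They were chosen by symbol because insulin cells of the Tg7 library held many of their UMIs (unique molecular identifiers, 1 per captured transcript) and insulin cells of the Wild-type library next to none. Their difference between the insulin cells of the 2 libraries is therefore a description of the choice. Beyond that contrast, the 7 genes are followed over the other islet cells, over single Tg7 insulin cells and along the balance of the insulin genes Ins1 and Ins2. The genes were chosen with earlier results of these data known, so these distributions are descriptions too.

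The Tg7 library came from islets of male 12-week-old mice of strain C57Bl6 with a transgene for the microRNA miR-7a2 that is specific to β-cells, a model in which these cells lose their identity. The Wild-type library came from male littermates of the same strain and age. By the study's account of its single-cell experiment, mice of both genotypes also carried rat Ins2-Cre and a Rosa26-floxed-Stop-tdTomato reporter, so that cells in which the rat insulin promoter has been active are labelled. Each group was 1 library, the number of mice behind it and the promoter of the miR-7a2 transgene are not given in the sources used here, and no difference between the groups has a replicate check or a p-value.

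After filtering, 992 Tg7 cells and 749 Wild-type cells remained, at median depths of 24246.5 and 39579 UMIs, and no cell barcode was shared between the libraries. The 7 islet hormone genes took 43.1% of UMIs in Tg7 cells and 63.3% in Wild-type cells, so levels are given per 10000 UMIs of all other genes. Cells were classed by hormone UMIs: an insulin cell had at least 0.1 of the median insulin share of its library's insulin-rich cells. This gave 705 Tg7 and 502 Wild-type insulin cells, 179 and 152 Gcg cells, 21 and 36 Sst cells, 37 and 15 Ppy cells, and small classes marked by endothelial (9 and 23) or macrophage genes (23 and 8). The 7 β-cell markers other than hormones summed to 7.99 per 10000 in Tg7 insulin cells and 52.6 in Wild-type insulin cells, with all 7 detected in both, so the Tg7 cells are called insulin cells here. Reporter UMIs of tdTomato were found in 212 of 705 Tg7 and 261 of 502 Wild-type insulin cells, against 0 of 179 and 2 of 152 Gcg cells. Ranges in brackets are 95% intervals and account for counting error alone.

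Islet β-cells are known for expressing a narrow set of genes at very high level and for keeping many widely expressed or neuronal genes off. Glucagon (Gcg), somatostatin (Sst) and pancreatic polypeptide (Ppy) cells descend from the same endocrine progenitors and keep overlapping but distinct sets. The 7 genes are not known as members of one pathway. C1ql3 is a secreted C1q-domain protein of neurons that binds the adhesion receptor Adgrb3 at synapses. Gpr179 is an orphan receptor known from the ON-bipolar cells of the retina, where it anchors RGS proteins. Ptpro is a receptor-type tyrosine phosphatase known from kidney podocytes and neurons, and Clmp is a cell adhesion protein related to the coxsackie and adenovirus receptor Cxadr. Moxd1 resembles dopamine β-hydroxylase and resides in the endoplasmic reticulum, as does Rcn3, an EF-hand calcium-binding protein. Eef1a2 is the form of translation elongation factor 1α that replaces Eef1a1 in muscle and neurons.

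The genes lie on 6 chromosomes. In build GRCm38.p6 (mm10) RefSeq places Clmp at chr9:40682123-40785553, Gpr179 at chr11:97332109-97352356, Moxd1 at chr10:24223517-24302783, Rcn3 at chr7:45082914-45092322 and Ptpro at chr6:137252299-137464634. Eef1a2 at chr2:181141758-181157015 and C1ql3 at chr2:13001887-13010864 share a chromosome. The microRNA overexpressed in Tg7 β-cells, shown because it is what sets the 2 groups apart, is mmu-miR-7a-5p from Mir7-2 at chr7:78888295-78888317 on the plus strand (RefSeq, GRCm38.p6). Its seed, bases 2 to 8, is in capitals.
mmu-miR-7a-5p: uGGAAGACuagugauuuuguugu
The 7-base match to this seed, GTCTTCC, occurs in the longest annotated 3′ UTR of 1 of the 7 genes, Clmp, and in 11.2% of 20007 genes in an annotation of an older mouse build. A match is a description of letters and not of a site in use.

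Upstream sequence was at hand for 6 of the 7 genes (RefSeq, GRCm38.p6). In the 250 bases before the start, the GC box GGGCGG, on either strand, occurred in 5 of 6 genes, against 32.7% of 32851 promoters. CCAAT occurred in 2 of 6 against 33.8%, TATAAA in 0 of 6 against 12.4%, TGANTCA in 0 of 6 against 6.75% and TAATTA in 0 of 6 against 4.84%. The 4 windows printed are of the 3 genes found in almost no Wild-type endocrine cell of any class (C1ql3, Moxd1, Ptpro) and, for contrast, of Eef1a2, which Wild-type Gcg cells hold. Capitals mark GGGCGG or CCAAT, or their reverse complements.
C1ql3, chr2:13010865-13011114, minus strand: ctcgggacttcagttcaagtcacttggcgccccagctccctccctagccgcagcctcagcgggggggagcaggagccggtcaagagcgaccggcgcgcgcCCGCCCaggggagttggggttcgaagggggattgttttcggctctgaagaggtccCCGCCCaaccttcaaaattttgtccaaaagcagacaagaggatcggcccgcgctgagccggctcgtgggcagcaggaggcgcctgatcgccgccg
Moxd1, chr10:24223267-24223516, plus strand: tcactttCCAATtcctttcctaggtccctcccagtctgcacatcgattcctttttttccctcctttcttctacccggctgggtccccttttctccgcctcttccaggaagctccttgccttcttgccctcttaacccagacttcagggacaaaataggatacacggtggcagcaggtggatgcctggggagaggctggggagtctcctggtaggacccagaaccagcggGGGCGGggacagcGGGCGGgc
Ptpro, chr6:137252049-137252298, plus strand: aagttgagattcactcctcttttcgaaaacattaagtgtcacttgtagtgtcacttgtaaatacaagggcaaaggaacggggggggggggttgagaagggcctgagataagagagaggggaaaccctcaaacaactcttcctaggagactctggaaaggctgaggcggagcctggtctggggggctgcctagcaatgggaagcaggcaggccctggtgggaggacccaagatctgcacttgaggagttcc
Eef1a2, chr2:181157016-181157265, minus strand: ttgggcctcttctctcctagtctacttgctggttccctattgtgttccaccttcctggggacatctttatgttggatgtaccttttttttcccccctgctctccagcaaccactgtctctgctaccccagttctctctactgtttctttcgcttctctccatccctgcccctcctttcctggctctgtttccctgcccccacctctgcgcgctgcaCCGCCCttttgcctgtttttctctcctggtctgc
The GC content of these windows was 66.4% in C1ql3, 58.4% in Moxd1, 53.6% in Ptpro and 54.0% in Eef1a2, against a median of 52.4% over all promoters.

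In insulin cells, all 7 genes passed a fixed fold of 10 for Tg7 over Wild-type. Of 13023 features with at least 20 UMIs, 205, or 1.57%, did so, and as the genes were chosen on this contrast nothing is read from the count. C1ql3 had 345 UMIs in 246 of 705 Tg7 insulin cells, against 1 UMI in 502 Wild-type insulin cells, a ratio per non-hormone UMI of 212 (37.8 to 8397). Moxd1 had 343 UMIs in 205 Tg7 insulin cells, against 1 UMI in Wild-type insulin cells, a ratio of 211 (37.6 to 8349). Ptpro had 297 UMIs in 199 Tg7 insulin cells, against 1 UMI in Wild-type insulin cells, a ratio of 182 (32.5 to 7232). A single Wild-type UMI leaves each of these ratios wide. Over all insulin cells they were the 3 highest of all features when a feature with 0 Wild-type UMIs is placed by its lower bound. That rule sets Lrp1b, with 593 Tg7 and 0 Wild-type UMIs, below them at 121.

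Gpr179 had 732 UMIs in 384 Tg7 insulin cells, against 9 UMIs in 8 Wild-type insulin cells, a ratio of 49.98 (26.2 to 110). Eef1a2 had 787 UMIs in 333 Tg7 insulin cells, against 14 UMIs in 9 Wild-type insulin cells, a ratio of 34.5 (20.5 to 63.5). Rcn3 had 614 UMIs in 296 Tg7 insulin cells, against 12 UMIs in 8 Wild-type insulin cells, a ratio of 31.4 (17.9 to 61.2). Clmp had 404 UMIs in 237 Tg7 insulin cells, against 9 UMIs in 6 Wild-type insulin cells, a ratio of 27.6 (14.4 to 60.8). By ratio these 4 genes stood at places 24, 41, 45 and 55. No Tg7 insulin cell held more than 12 UMIs of any of the 7 genes, and the 5 cells with most UMIs held between 23 and 50 of a gene's UMIs, so no level rested on a few cells. Summed over the 7 genes, Tg7 insulin cells held 2.48 UMIs per 10000 and Wild-type insulin cells 0.0538, a ratio of 46.0 (34.6 to 62.8).

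The few UMIs in Wild-type insulin cells were mostly in cells that carried another hormone. Of the 502 cells, 480 were positive for insulin alone, and these held 1 UMI of Clmp, 2 of Eef1a2, 3 of Gpr179, 1 of C1ql3, 1 of Moxd1, 2 of Rcn3 and 0 of Ptpro. The other 22 cells, 18 of them positive for Sst and 8 for Gcg with some positive for both, held 8 of the 9 UMIs of Clmp, 12 of the 14 of Eef1a2, 6 of the 9 of Gpr179 and 10 of the 12 of Rcn3. Summed over the genes this was 0.717 per 10000 in these 22 cells and 0.0122 in the 480. The Scrublet doublet score had a median of 0.0146 in the 22 cells and 0.0102 in the 480, and the part of undetected doublets in these UMIs was not tested. In the Tg7 library 533 insulin cells were positive for insulin alone and 172 for another hormone too, and the summed levels were 2.50 (2.40 to 2.60) and 2.43 per 10000. Among insulin-alone cells of both libraries the ratio of the summed genes was 205 (111 to 429). By gene it was 244 for Clmp, 221 for C1ql3, 209 for Eef1a2 and 204 for Moxd1. For Rcn3 it was 172, for Gpr179 147 and for Ptpro at least 60.6. With so few Wild-type UMIs these ratios are wide, and the order of the genes by ratio in all insulin cells did not hold there.

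Markers of other cell types moved with the groups in part. The 6 α-cell markers other than Gcg summed to 57.0 per 10000 in Tg7 insulin cells (6 of 6 detected) and 30.8 in Wild-type insulin cells (5 of 6), against 665 and 562 in Gcg cells. These insulin cells include 80 Tg7 and 8 Wild-type cells also positive for Gcg. Marker sums were not taken for insulin-alone cells, so the part of the Gcg-positive cells in this difference was not tested. Duct markers summed to 4.22 in Tg7 and 0.362 in Wild-type insulin cells (3 of 4 detected in both, Cftr at 0). Almost all of this sum in both libraries was 1 gene, Spp1, with 5972 Tg7 and 306 Wild-type UMIs in insulin cells. Spp1 also had 161 UMIs in Wild-type Ppy cells and 127 in Wild-type macrophage-marked cells, so the sum is not read as a duct set. The 3 γ-cell markers other than hormones summed to 2.44 and 0.772, and the 5 δ-cell markers other than Sst to 44.7 and 32.9. Macrophage markers summed to 0.405 and 0.829 and endothelial markers to 0.173 and 0.198. Neuron and glia markers summed to 3.42 and 4.17, muscle markers to 0.0563 and 0.0882 and acinar markers to 0.0648 and 0.0733. Stellate and fibroblast markers were near 0 in both, at 0.0253 and 0.00115. The 4 markers of retinal bipolar cells, in which Gpr179 is known, summed to 1.99 and 2.18, with Isl1 and Trpm1 detected and Grm6 and Nyx at 0 in both. Trpm1 had 2 UMIs in each library, so this sum is almost all Isl1 and is not read as a bipolar set. In Tg7 and Wild-type Gcg cells Isl1 was the only 1 detected, at 2.26 and 2.16. Except for the share of Gcg-cell RNA given with the Gcg cells, the part of these markers in the levels of the 7 genes was not tested.

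**Figure D1:**
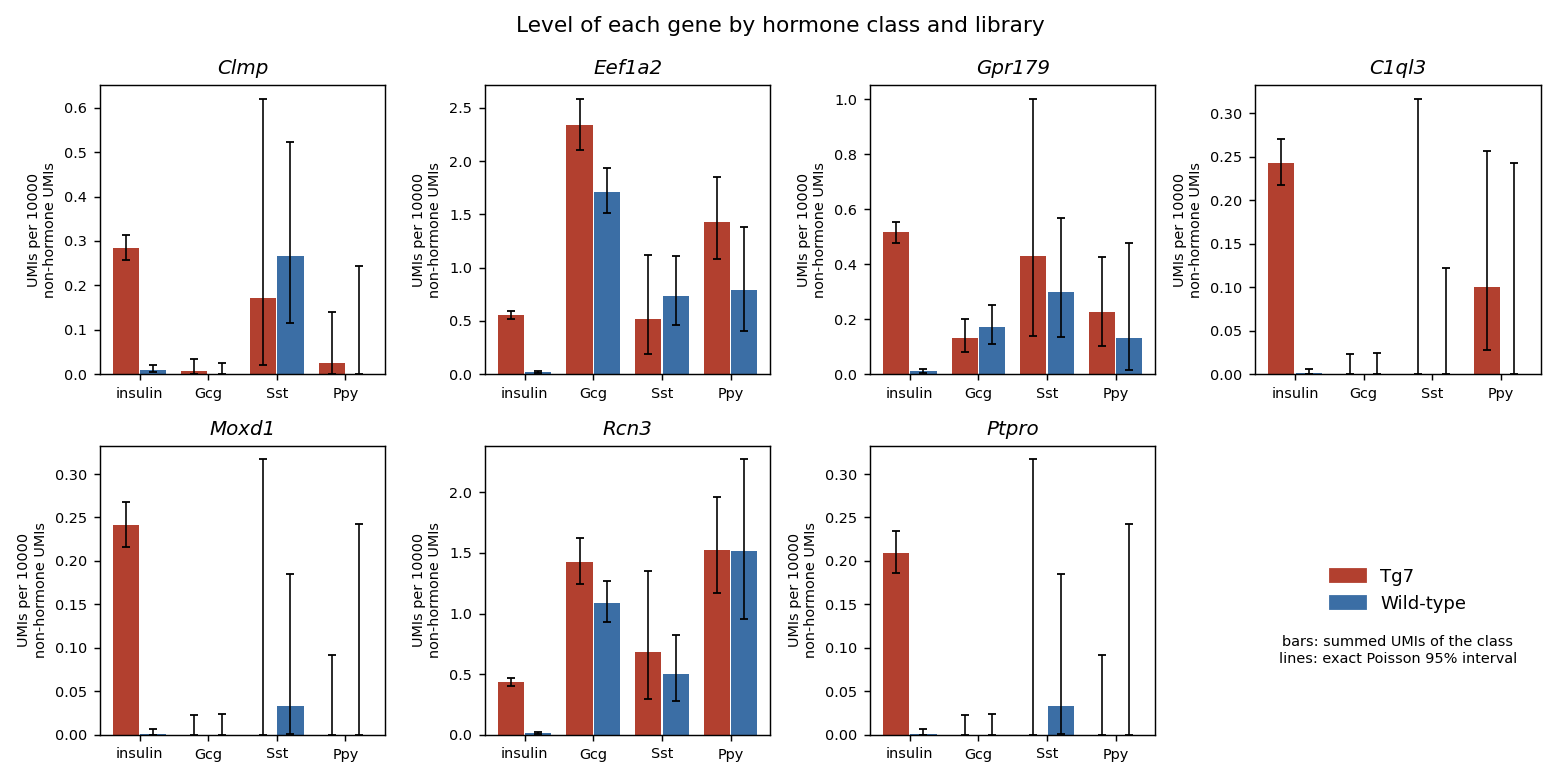
Level of each gene, in UMIs per 10000 non-hormone UMIs, in insulin, Gcg, Sst and Ppy cells of the Tg7 (red) and Wild-type (blue) libraries, with exact Poisson 95% intervals and a linear axis of its own for each gene. In insulin cells every gene was near 0 in Wild-type, while Eef1a2 and Rcn3 stood higher in Gcg cells of both libraries than in Tg7 insulin cells.

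The other islet cells of the Wild-type library split the 7 genes. Eef1a2 and Rcn3 were genes of Gcg and Ppy cells: Eef1a2 had 261 UMIs in 99 of 152 Wild-type Gcg cells, and Rcn3 had 166 UMIs in 93 of them. Per 10000 non-hormone UMIs this was 1.71 for Eef1a2 (1.51 to 1.93) and 1.09 for Rcn3 (0.929 to 1.27). Tg7 insulin cells thus reached 0.324 (0.281 to 0.374) of the Wild-type Gcg-cell level of Eef1a2 and 0.397 (0.334 to 0.474) of that of Rcn3. In Wild-type Ppy cells Rcn3 stood at 1.51 per 10000 (0.959 to 2.27) and Eef1a2 at 0.789 (0.408 to 1.38). In Wild-type Sst cells both were present too, with 15 UMIs of Rcn3 in 13 of 36 cells and 22 UMIs of Eef1a2 in 7 cells, 19 of these in 5 cells.

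Gpr179 and Clmp were scarcer in the other Wild-type cells. Gpr179 had 26 UMIs in 24 of 152 Wild-type Gcg cells and 9 UMIs in 9 of 36 Wild-type Sst cells. Its level in Tg7 insulin cells, 0.515 per 10000, was 3.02 times (2.05 to 4.66) that of Wild-type Gcg cells and 1.72 times (0.902 to 3.78) that of Wild-type Sst cells, an interval that includes 1. Clmp had 8 UMIs in 5 of 36 Wild-type Sst cells and 0 in 152 Wild-type Gcg cells, where 3 UMIs would have been 0.0197 per 10000. The Clmp level of Tg7 insulin cells, 0.284 per 10000, was 1.07 times (0.538 to 2.49) that of Wild-type Sst cells, and 0.819 times when scaled to all UMIs.

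C1ql3, Moxd1 and Ptpro had almost no UMI in any other Wild-type endocrine cell. C1ql3 had 0 UMIs in the Gcg, Sst and Ppy cells of the Wild-type library. Moxd1 and Ptpro had 1 UMI each, both in Sst cells. For Gcg cells, with 0 UMIs of all 3 genes, the floor of 3 UMIs makes the Tg7 insulin-cell level at least 12.4-fold higher for C1ql3, at least 12.3-fold for Moxd1 and at least 10.6-fold for Ptpro. In the 15 Wild-type Ppy cells 3 UMIs would be 0.197 per 10000, close to the Tg7 insulin-cell levels of 0.243 for C1ql3, 0.241 for Moxd1 and 0.209 for Ptpro, so a somewhat lower level was not detectable there. Outside the endocrine cells, Ptpro had 6 UMIs in 23 Tg7 macrophage-marked cells and 3 UMIs in 8 Wild-type ones, and C1ql3 and Moxd1 had 0 UMIs in the endothelial-marked and macrophage-marked cells of both libraries.

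In the Tg7 library, the Gcg cells were close to their Wild-type counterparts in these genes, while Sst and Ppy cells were too few to show likeness. For example, Tg7 over Wild-type gave 1.81 (0.958 to 3.70) for Eef1a2 in Ppy cells and 0.646 (0.0668 to 3.24) for Clmp in Sst cells. C1ql3, Moxd1 and Ptpro had 0 UMIs in the 179 Tg7 Gcg cells and 21 Tg7 Sst cells, and in 37 Tg7 Ppy cells only C1ql3 had any, 4 UMIs in 3 cells. Clmp had 1 UMI in Tg7 Gcg cells. Gpr179 stood at 0.132 per 10000 in Tg7 Gcg cells and at 0.170 in Wild-type Gcg cells, a ratio of 0.772 (0.413 to 1.43). Eef1a2 and Rcn3 were somewhat higher in Tg7 Gcg cells, at 2.34 against 1.71 per 10000 in Wild-type (ratio 1.37, 1.16 to 1.61) and at 1.42 against 1.09 in Wild-type (ratio 1.31, 1.07 to 1.61). None of the 3 genes with over 3 UMIs in Gcg cells reached a fold of 10 there, where 2 of 9242 features, or 0.0216%, did. Free RNA from insulin cells, scaled by the Ins1 and Ins2 UMIs of a class, would give at most 0.269 UMIs of any 1 gene in any class of either library without insulin.

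RNA of Gcg cells in the Tg7 insulin cells was measured the same way, by Gcg UMIs. Tg7 insulin-alone cells held 51031 Gcg UMIs, against 1356968 in Tg7 Gcg cells, and that share of Gcg-cell RNA would bring 14.0 UMIs of Eef1a2 and 8.54 of Rcn3, where 520 and 428 were counted. In Wild-type insulin-alone cells it would bring 0.471 and 0.300, where 2 and 2 were counted. In all 705 Tg7 insulin cells, those with Gcg included, it would bring 108 of the 787 UMIs of Eef1a2 and 65.5 of the 614 of Rcn3. In all 502 Wild-type insulin cells it would bring 11.6 UMIs of Eef1a2 and 7.35 of Rcn3, where 14 and 12 were counted. The 8 of these cells positive for Gcg held 11 UMIs of Eef1a2 and 4 of Rcn3, fewer of Rcn3 than this estimate. The 18 positive for Sst, some of them also for Gcg, held 6 and 10. The source of these Wild-type counts was not tested.

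Detection depends on depth, so cells were also compared after drawing each to the same number of non-hormone UMIs. At 10000 UMIs per cell, a depth reached by 566 Tg7 and 472 Wild-type insulin cells, 83.9% (80.6 to 86.9) of Tg7 insulin cells had a UMI of at least 1 of the 7 genes, against 3.81% (2.28 to 5.96) of Wild-type insulin cells. At least 2 genes were found in 57.6% of Tg7 and 0.636% of Wild-type insulin cells, and at least 3 in 24.9% and 0.212%. Single genes were found in 17.5% (Moxd1 and Ptpro) to 36.6% (Gpr179) of the Tg7 cells. In the Wild-type cells the shares ran between 0% for C1ql3, where 0 of 472 cells allow up to 0.636%, and 1.48% for Rcn3. At 2000 UMIs per cell the share with any of the genes was 35.8% (32.3 to 39.6) of 689 Tg7 insulin cells and 1.0% (0.327 to 2.33) of 498 Wild-type insulin cells, and without thinning it was 91.2% of Tg7 and 5.38% of Wild-type insulin cells.

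**Figure D2:**
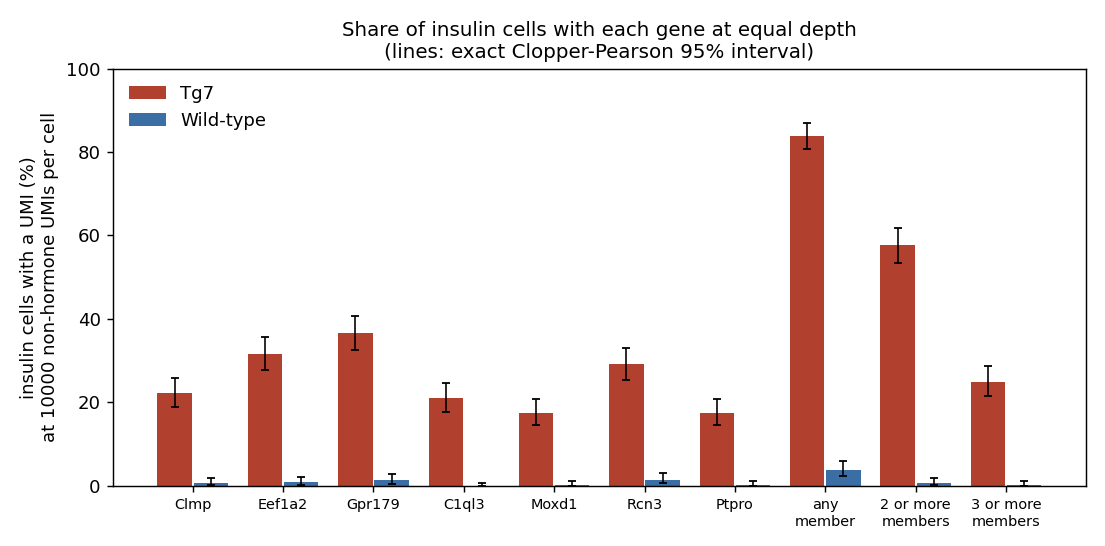
Share of insulin cells with at least 1 UMI of each gene, of any gene and of 2 or 3 or more genes, with each cell drawn to 10000 non-hormone UMIs, in Tg7 (red, 566 cells) and Wild-type (blue, 472 cells), with exact Clopper-Pearson 95% intervals. Single genes were found in 17.5% to 36.6% of Tg7 cells and any of the 7 in 83.9%, against 3.81% of Wild-type cells.

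As a background for these shares, Gcg cells at 2000 UMIs held none of C1ql3, Moxd1 or Ptpro in 167 Tg7 and 150 Wild-type cells, each 0 allowing up to 1.80% and 2.0%. Tg7 insulin cells held them in 4.79%, 5.08% and 4.64% of cells at that depth. Before thinning, the median depth was 17305 non-hormone UMIs in Tg7 insulin cells, 8275 in Tg7 Gcg cells and 8912.5 in Wild-type Gcg cells. Eef1a2 went the other way and was found in 10.2% of Tg7 insulin cells, 31.7% of Tg7 Gcg cells and 26.7% of Wild-type Gcg cells at 2000 UMIs. The maturity factor Mafa was found in 4.35% of Tg7 and 54.8% of Wild-type insulin cells at the same depth.

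The number of the genes found per Tg7 insulin cell was set against that expected of independent genes. If the 7 were independent, the shares at 10000 UMIs would give 72.7 cells with none of them, 176 with 1, 179 with 2, 98.9 with 3, 32 with 4 and 6.08 with 5. The counts were 91, 149, 185, 97, 36 and 8 of 566 cells, and no cell had more than 5. Cells with none were thus more, and cells with 1 fewer, than expected, as at 5000 UMIs (234 against 215 and 245 against 271). Over the 21 pairs of genes, cells with both were found 772 times against 739 expected. The median ratio of observed to expected was 1.09 in this draw and 1.02 as the mean over all possible draws, and at 2000 UMIs, where pairs were found in at most 8 cells, it was 1.33. Pearson correlation of each gene with the sum of the other 6 over the 566 cells, on log2(UMIs + 1), lay between -0.018 and 0.088. Such values in sparse counts of 1 library are weak and are no finding.

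**Figure D3:**
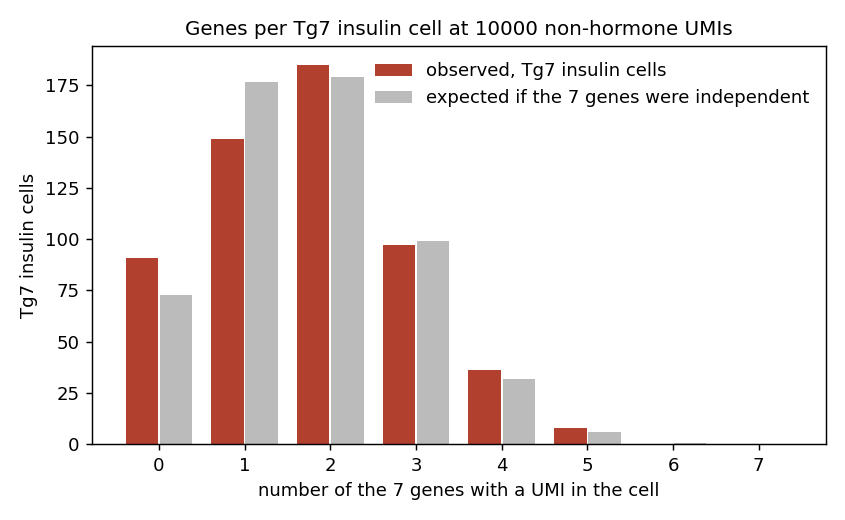
Number of Tg7 insulin cells with 0 to 7 of the genes at 10000 non-hormone UMIs per cell (red, observed) beside the number expected from the 7 shares if the genes were independent (grey). Observed cells exceed the expected number at 0 genes (91 against 72.7) and fall short of it at 1 gene (149 against 176).

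Single pairs deviated a little. Moxd1 and Ptpro were found together in 30 cells against 17.3 expected, a ratio of 1.73 (1.17 to 2.47) in this draw and 1.58 as the mean over draws. C1ql3 had ratios of 1.49 with Moxd1 and 1.2 with Ptpro in the draw, and 1.25 and 1.24 over draws. Eef1a2 and Rcn3 were found together in 68 cells against 52.2 expected, a ratio of 1.30 (1.01 to 1.65) in the draw and 1.35 over draws. In the 408 insulin-alone cells at this depth they were together in 41 against 32.9 expected, a ratio of 1.25 (0.895 to 1.69) that includes 1. Rcn3 had ratios of 0.605 (0.375 to 0.925) with C1ql3 and of 0.658 (0.396 to 1.03) with both Moxd1 and Ptpro in the draw, the last 2 with intervals that include 1, and of 0.803, 0.697 and 0.738 over draws. At 2000 UMIs, with few cells a pair, its ratios with Moxd1 and Ptpro were 0.984 and 1.08. Of the 21 intervals in the draw, 3 lay above 1 and 1 below, and as all pairs come from 1 library the ratios are a description. In insulin-alone cells only 1 of the 21 lay above 1, that of Moxd1 and Ptpro at 1.77 (1.17 to 2.55). There the interval of C1ql3 with Rcn3 stayed just below 1, at 0.604 (0.338 to 0.996).

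**Figure D4:**
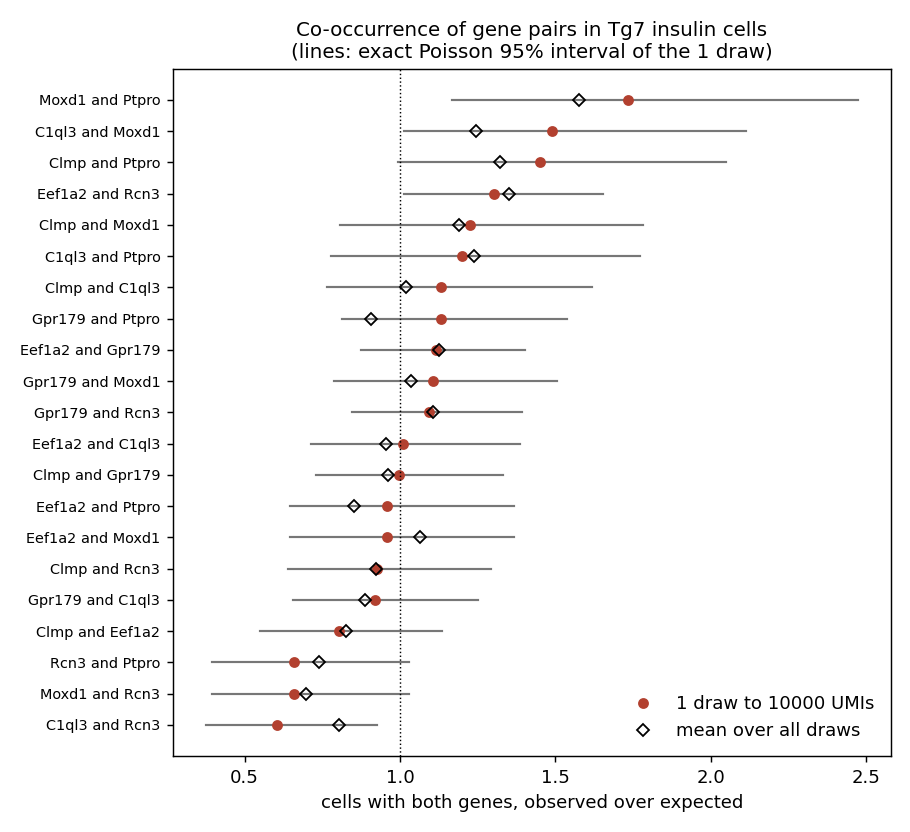
Tg7 insulin cells with both genes of a pair over the number expected from the 2 shares, for the 21 pairs at 10000 non-hormone UMIs per cell; points are 1 draw with exact Poisson 95% intervals, diamonds the mean over all draws. Moxd1 and Ptpro stand highest at 1.73, and the pairs of Rcn3 with C1ql3, Moxd1 and Ptpro lowest at 0.605 to 0.658.

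The balance of the insulin genes was used to order the cells that hold the 7 genes; the amount of insulin RNA was not used. Tg7 insulin cells were ordered by Ins1 as a share of Ins1 plus Ins2 UMIs, a measure that ran between 0% and 47.1%, and divided into 4 groups of 176 or 177 cells. From the group with the lowest Ins1 share to that with the highest, the summed 7 genes stood at 2.47, 2.36, 2.59 and 2.52 UMIs per 10000, and the highest over the lowest group gave 1.02 (0.920 to 1.13). Mafa in the same groups stood at 0.125, 0.137, 0.194 and 0.399 per 10000. Among single genes, Clmp had its lowest level in the group with the highest share, 0.184 (0.141 to 0.235), against 0.324 (0.260 to 0.399) in the group with the lowest. For the other 6 genes the intervals of these end groups overlapped. Such overlap does not show equal levels, and no ratio between the end groups was taken for single genes. In the highest and lowest group Rcn3 stood at 0.527 (0.453 to 0.610) and 0.405 (0.333 to 0.489), opposite in direction to Clmp. Ptpro stood at 0.189 (0.146 to 0.241) and 0.258 (0.201 to 0.326) in these groups. Eef1a2 varied without order, at 0.560, 0.429, 0.670 and 0.574 per 10000. Median depth was 18018.5 non-hormone UMIs in the highest group and 12770 in the lowest, and its part was not tested.

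**Figure D5:**
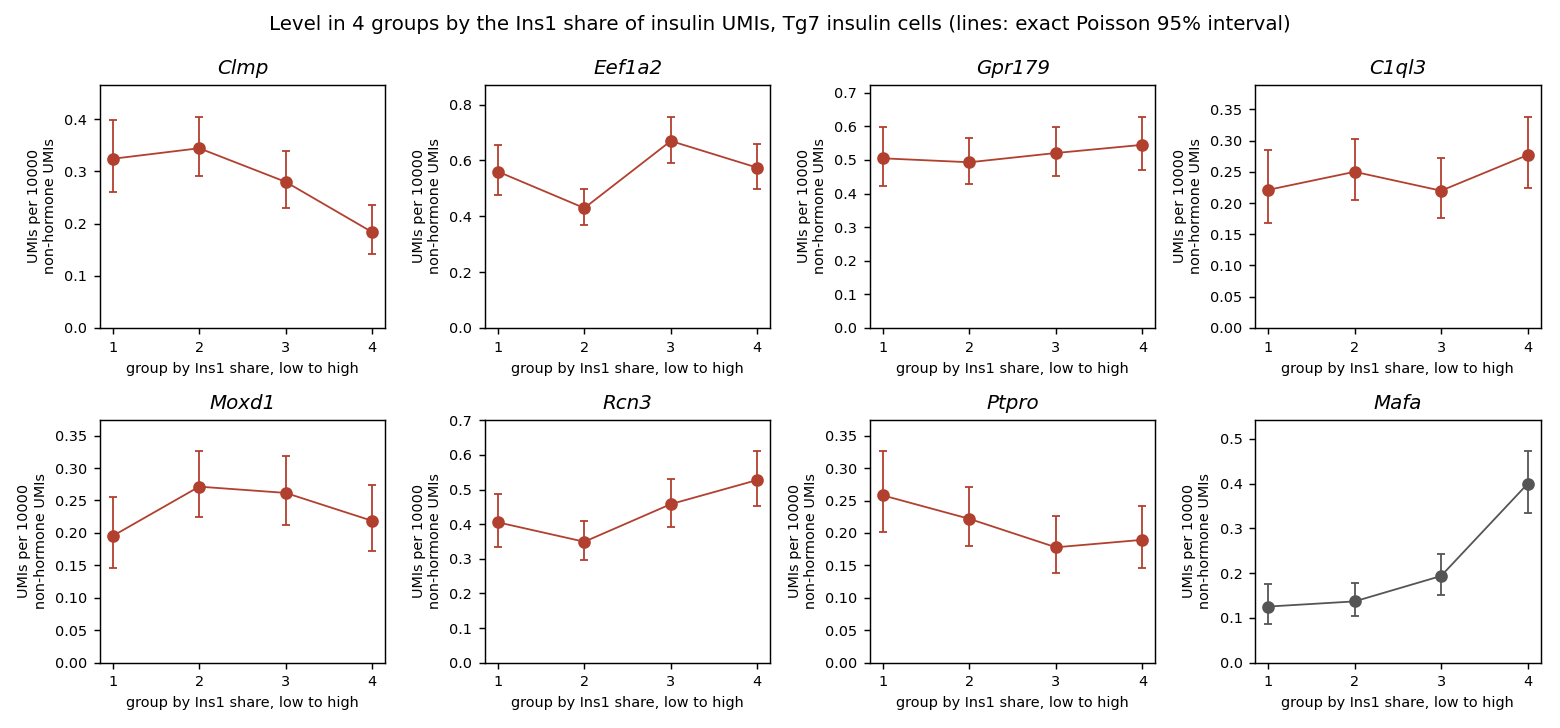
Level of each gene, in UMIs per 10000 non-hormone UMIs, in 4 groups of Tg7 insulin cells by the Ins1 share of insulin UMIs (176 or 177 cells a group), with exact Poisson 95% intervals and axes that start at 0; Mafa (grey) is shown for reference. In the group with the highest share Mafa stands highest, at 0.399, and Clmp lowest, at 0.184.

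Insulin cells with a second hormone were set against those with insulin alone. In the 80 Tg7 insulin cells also positive for Gcg, Eef1a2 stood at 0.907 per 10000 (0.778 to 1.05) and C1ql3 at 0.128 (0.0829 to 0.189). In the 533 cells with insulin alone, Eef1a2 stood at 0.510 (0.467 to 0.555) and C1ql3 at 0.270 (0.239 to 0.303). With Sst (50 cells) or Ppy (69 cells) as the other hormone, Eef1a2 stood at 0.425 (0.311 to 0.567) and 0.593 (0.483 to 0.720), intervals that overlap that of insulin-alone cells. Moxd1 stood at 0.141 (0.0902 to 0.210) in cells with Ppy and at 0.248 (0.218 to 0.280) in insulin-alone cells. The 80 cells with Gcg had a median of 24538.5 non-hormone UMIs and a median doublet score of 0.0243, against 14972 and 0.0127 in insulin-alone cells, and the part of doublets in this difference was not tested. Summed, the 7 genes stood at 2.58 (2.36 to 2.82) with Gcg, 2.15 (1.89 to 2.45) with Sst, 2.30 (2.08 to 2.54) with Ppy and 2.50 (2.40 to 2.60) in insulin-alone cells. By the reporter, the sum was 2.52 per 10000 (2.38 to 2.66) in 212 Tg7 insulin cells with a tdTomato UMI and 2.46 (2.36 to 2.56) in 493 without. Median depth in these 2 groups was 21756.5 and 14985 non-hormone UMIs.

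The list of relatives and partners of the 7 genes was not set by ratio, though earlier results of these data were known. The genes named from it were picked in part by their ratio. Of 44 listed, 31 had at least 20 UMIs in insulin cells, and 0 of 31 were at least 10-fold higher in Tg7, beside 1.57% of all features. The ratio was above 1 for 23, with 20 intervals above 1, and below 1 for 8, with 7 intervals below 1. Of these 8, 6 turn above 1 when scaled to all UMIs, a scaling that multiplies every ratio by 1.73. Eef1a1, the common form of the factor, gave a ratio of 1.43 (68675 Tg7 and 29587 Wild-type UMIs). Of the other C1q-like genes, C1ql1, C1ql2 and C1ql4 had 0 UMIs in the insulin cells of both libraries. The C1ql3 receptor gene Adgrb3 had a ratio of 1.48 with 515 and 214 UMIs. Its relative Adgrb1 (34 Tg7 and 0 Wild-type UMIs) was at least 6.96-fold higher, and the neurexin gene Nrxn2 (98 and 8) had a ratio of 7.53 (3.67 to 17.9). Scaled to all UMIs, these 2 would pass 10-fold, at 12.1 and 13.1.

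Gpr158, the closest relative of Gpr179, ran the other way at 0.448 (702 Tg7 and 962 Wild-type UMIs), also when scaled to all UMIs (0.778). The RGS gene Rgs9 and the RGS-binding Rgs7bp had ratios of 2.44 and 1.78. Grm6, the glutamate receptor that works with Gpr179 in the retina, had 0 UMIs in the insulin cells of both libraries. Dbh and Moxd2 also had 0 UMIs in these insulin cells, while Pam, another copper monooxygenase of secretory cells, had a ratio of 2.84. Rcn1 and Sdf4, EF-hand proteins of the same family as Rcn3, had ratios of 2.26 and 2.02, and Rcn2 0.759, or 1.32 when scaled to all UMIs. Among adhesion genes, Jam2 had a ratio of 2.76, Cxadr 0.811, or 1.41 when scaled to all UMIs, and Igsf11 0.112 with 10 Tg7 and 55 Wild-type UMIs. Among phosphatases, Ptprn2 had a ratio of 2.20 and Ptprj, of the same subfamily as Ptpro, 1.11 (0.944 to 1.32).

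The split of the genes over other Wild-type cells was also seen among the 198 other features that passed the fold of 10 in insulin cells. Of these, 69 (34.8%) were at or above their Tg7 insulin-cell level in Wild-type Gcg, Sst or Ppy cells, as were 2 of the 7 genes, Eef1a2 and Rcn3. Of the 198, 106 (53.5%) had no more than 3 UMIs summed over those cells, as had 3 of the 7; the 2 counts overlap, since 1 UMI in a small class can exceed a low Tg7 level. Correlations from cell to cell were weak. Among 1095 genes with at least 200 UMIs over 689 Tg7 insulin cells drawn to 2000 UMIs, the highest correlations with the summed 7 genes were 0.115 for the clock gene Nr1d1 and 0.108 for Gatsl2, and the lowest were -0.109 for Wnt4 and -0.100 for Morf4l1. At 10000 UMIs (4556 genes, 566 cells) other genes stood at the ends, BC004004 at 0.177 and Rimbp2 at -0.171.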

How the data were processed

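Islets of 1 Tg7 and 1 Wild-type group were dissociated and profiled by droplet-based RNA-seq (10x Genomics). The authors deposited raw UMI counts per gene and barcode, 1 matrix per library, with 29931777 UMIs over 1123 Tg7 barcodes and 30829078 over 855 Wild-type barcodes. Per the submitters' processing notes these were made with bcl2fastq 2.17.1.14 and Cell Ranger 3.0.2 on mm10.

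Of the barcodes, 1006 and 755 passed (1000 UMIs or more, mitochondrial share no higher than 20%), and 14 and 6 doublets called with Scrublet (scanpy 1.11.5) were removed. Cells with at least 1% macrophage or endothelial marker UMIs were set apart. A cell was positive for a hormone at 0.1 of the median share in the cells where that hormone leads and takes at least 1% of UMIs; the insulin threshold was 2.73% in Tg7 and 6.36% in Wild-type, and 19 and 3 cells lay within a factor of 2 of it. No deposited cell types were used, so classes may differ from those of the study.

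Counts were summed per class and scaled to the UMIs outside the 7 hormone genes (Ins1, Ins2, Gcg, Sst, Ppy, Pyy, Iapp), after which the median log2 ratio of all features in insulin cells was -0.015. Intervals are exact Poisson (levels), Clopper-Pearson (shares) and conditional binomial (ratios); a count of 0 was set to a floor of 3 UMIs over the class. Cells were thinned without replacement in Python 3.11.15. Expected pair counts are products of shares. TMM factors came from edgeR 4.0.16. The steps were tested on simulated data.

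The 7 genes and the lists were chosen with earlier results of these data known. Further genes named are those with at least 20 UMIs from the list of relatives and partners (up to 3 a family by largest ratio and most UMIs, and some at 0 or below 1 named after their values were seen), the 10 other features with the largest ratios at 100 Tg7 UMIs (mitochondrial, ribosomal protein, hormone, Gm, Rik and other unnamed genes left out), and the genes most correlated with the 7. Alternatives were other barcode filters, doublets kept, a hormone threshold of 0.2, insulin-alone cells, Leiden clusters, 2 other scalings, other feature minimums and other thinning; thinning to 10000 was chosen after seeing the data.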

Additional observations from a re-analysis of the deposited data

How the results depend on the processing

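All 7 genes stayed at least 10-fold higher in Tg7 insulin cells under each of the 10 alternatives run for that count, while the share of all features past this fold was 2.93% when scaled to all UMIs (382 features) and 0.943% with at least 100 UMIs (100 features). The ratio of the summed genes, 46.0, was 205 in insulin cells positive for no other hormone and 79.9 when scaled to all UMIs, and over all 8 alternatives it ran between 40.5 and 205. The share of Tg7 insulin cells with any of the genes depends on depth by construction: it was 65.4% at 5000 UMIs, 83.9% at 10000 and 91.2% without thinning. With barcodes of 2000 UMIs or more and a mitochondrial share no higher than 10%, the median co-occurrence ratio was 0.769, at a depth where pairs are in few cells. The genes with over 3 UMIs in Tg7 Gcg, Sst and Ppy cells then numbered 3 in place of 5, with fewer cells kept, and the cause was not tested. Among the 5, Clmp (1, 2 and 1 UMIs in these classes) and C1ql3 (4 in Ppy cells alone) were barely over the floor of 3. The share of all features over this floor was not taken for either library. The count of 4 in Wild-type cells and the ratio between the end groups by Ins1 share (0.988 to 1.01) held under all 5 alternatives each. No paired analysis was possible because each group is 1 library, and no replicate could be left out. Sst and Ppy cells are too few to bound low levels.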

Other observations

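Apart from the 7 genes, the 10 named genes with the largest ratios in insulin cells and at least 100 Tg7 UMIs came from varied families; Gm, Rik and other unnamed genes were left out. Ptger3, a prostaglandin E receptor, had a ratio of 141 (1145 Tg7 and 5 Wild-type UMIs). Lrp1b, a large receptor of the LDL receptor family, had 593 and 0, at least 121-fold higher, and was at 0 in every other Wild-type class named here. Cck, the gut hormone cholecystokinin, had 383 and 2, a ratio of 118. The glutamate transporter gene Slc1a1 (161 and 1 UMIs), the branched-chain aminotransferase Bcat1 (288 and 2), the kinase Camk2a (128 and 1), the muscle fructose bisphosphatase Fbp2 (214 and 2) and Tmie (408 and 4) had ratios between 62.7 and 98.9. Epas1, which encodes a hypoxia-inducible factor (492 and 4), and the phosphatase Ptpre (106 and 1) were also found outside the endocrine cells, with 316 and 28 UMIs in 23 Wild-type endothelial-marked cells and 0 and 6 UMIs in 8 Wild-type macrophage-marked cells.

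Cells that fitted no class, 18 in Tg7 and 13 in Wild-type, held 11 and 3 UMIs of Rcn3, 2 and 0 of Eef1a2 and 0 and 1 of Clmp, and no UMI of the other 4 genes.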
